A study of Homo sapiens with 18 samples.

Results

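The 10 genes described here carry glucose into the cell and through glycolysis: the transporters SLC2A1 and SLC2A3, the hexokinase HK2, the regulators PFKFB3 and PFKFB4, the glycolytic enzymes ALDOA, PGK1 and ENO1, and LDHA and PDK1, which act on pyruvate. They were chosen by gene symbol with earlier results of these data known. All 10 were found among the 53853 genes of the read table. All 10 also passed the filter on low counts, which left 18913 genes to test. RNA sequencing of polyadenylated RNA was done on 18 libraries of human ventral forebrain organoids grown from H9, an established embryonic stem cell line, and the groups compare dopamine and cocaine with vehicle, each with and without an antioxidant.

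Organoids were patterned from day 10 with 100 ng/mL sonic hedgehog and 1 µM purmorphamine, a compound that activates the same pathway. From day 83 they were dosed every day for 1 week, and a final dose of 1 h followed. The 6 groups of 3 libraries were control, which received 100 µM ascorbic acid as vehicle, dopamine at 1 µM, cocaine at 1 µM, and the same 3 treatments with 100 µM acetylcysteine, called the inhibitor below because the labels name it an inhibitor of reactive oxygen species. Ascorbic acid, itself an antioxidant, was in every group including the controls. All 18 libraries came from 1 stem cell line, and another cell line that the design names was not analysed here. Separate cultures for the 3 libraries of a group are not stated in the labels, and the p-values measure the spread between these libraries, which may be technical.

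Glucose enters cells through carriers of the SLC2A family, is trapped by hexokinase as glucose 6-phosphate and is split by glycolysis into pyruvate with a net gain of ATP. Pyruvate is either reduced to lactate or oxidised in mitochondria, where neurons obtain most of their ATP, while progenitors and astrocytes rely more on glycolysis. All 10 genes are known targets of hypoxia-inducible factor (HIF), a transcription factor that raises glucose uptake and glycolysis when oxygen is low, and cultured organoids commonly express glycolytic genes at high levels.

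The libraries held between 23789195 and 30327891 reads assigned to genes. In controls the summed level of 8 neuronal markers was 9108 to 9705 CPM (reads scaled to the size of the library). For 10 markers of ventral forebrain and interneurons the sum was 509 to 588 CPM. For 7 microglial markers it was at most 0.414 CPM, with C1QB at 0 in all 18 libraries. Some libraries stood apart. Library 3 of dopamine + inhibitor had 67.0 CPM of pigment and eye markers, against 4.55 to 13.9 CPM in the other 17 libraries. Markers of dividing cells summed to 560 CPM in library 3 of cocaine and 595 CPM in library 1 of cocaine + inhibitor, against 208 to 239 CPM in controls. Library 2 of cocaine had 196 CPM of hindbrain and spinal cord markers, against 22.2 to 89.4 CPM in the other 17 libraries. Library 2 of cocaine + inhibitor had 567 CPM of ventral forebrain markers, against 352 and 372 CPM in the other 2 libraries of its group. In bulk RNA, fewer cells of a type and less RNA per cell cannot be told apart.

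Between genes, levels were compared in the deposited TPM, a unit that allows for gene length. In controls ENO1, the enolase of most tissues, was the highest of the 10 at 981 ± 33.6 TPM (SD, n = 3). PGK1, which makes the first ATP of glycolysis, followed at 718 ± 5.63 TPM, and ALDOA, the aldolase that splits the sugar, at 446 ± 9.28 TPM. LDHA, the lactate dehydrogenase subunit that favours lactate formation, stood at 222 ± 23.4 TPM and HK2 at 165 ± 11.1 TPM. SLC2A1, the glucose carrier of most cells and of the blood-brain barrier, had 142 ± 8.97 TPM, and PFKFB3, which makes the activator of phosphofructokinase, had 132 ± 6.59 TPM. These neighbours overlapped in their ranges, so their order was not resolved. SLC2A3, the high-affinity neuronal carrier, had 94.0 ± 5.22 TPM. PFKFB4, a second enzyme of the PFKFB family, had 40.2 ± 1.83 TPM and PDK1, the kinase that shuts pyruvate dehydrogenase, had 35.6 ± 1.73 TPM, the lowest of the 10.

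Isozymes outside the 10 were more abundant than their partner in some families and less abundant in others. HK1, the housekeeping hexokinase of brain, had 302 ± 12.8 TPM in controls, above HK2 in each of the 3 libraries. LDHB, the subunit that favours pyruvate, had 663 ± 12.6 TPM, above LDHA. ENO2, the neuronal enolase, had 1027 ± 20.2 TPM, close to ENO1. In the other direction ALDOC, the brain aldolase, had 252 ± 31.5 TPM, below ALDOA, and PDK2, PDK3 and PDK4 had 25.4 ± 1.05, 18.4 ± 1.14 and 1.23 ± 0.307 TPM, below PDK1. GAPDH, at 2160 ± 31.2 TPM, was above all of these. SLC2A14, a near-identical copy of SLC2A3 on the same chromosome, had 6 to 19 reads in any library, so few SLC2A3 reads could have been assigned to it, but the sources used here do not give how reads shared by the pair were counted.

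**Figure D1:**
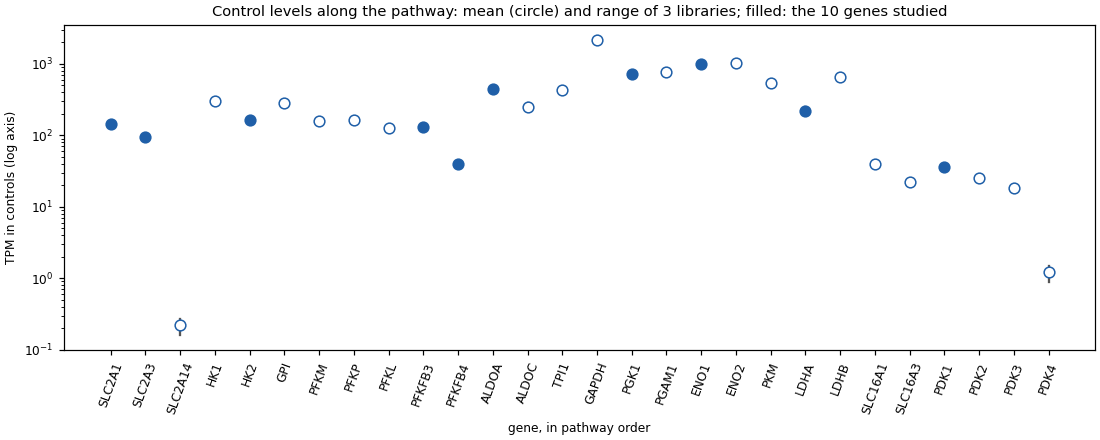
TPM in the 3 control libraries (log axis) of genes in pathway order, with circles for means and lines for ranges; filled circles mark the 10 genes. ENO1 at 981 TPM and PDK1 at 35.6 TPM are the ends of the 10, and GAPDH at 2160 TPM stands above them.

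Promoter windows, from 250 bases before to 50 bases after an annotated transcript start, were available from RefSeq (GRCh38.p14) for 9 of the 10 genes, 15 windows in all, with some genes having several starts. They are shown because HIF binds the core letters ACGTG or GCGTG. Each letter string was searched on both strands, so its reverse complement CACGT or CACGC also counts, and a palindromic CACGTG holds ACGTG on both strands at once. ACGTG was in 9 of the 15 windows and in 21.4% of all 35116 windows in the table. GCGTG was in 9 of the 15 and in 36.5% of all. One or the other was in 14 of the 15 and in 48.4% of all, and CACGTG was in 4 of the 15 and in 7.26% of all. Windows of the same gene can overlap, and a match describes letters, not binding. Windows of ALDOA, PFKFB4, ENO1 and PDK1 are not printed, and 1 PDK1 window held no match to ACGTG or GCGTG. For HK2, PFKFB3 and LDHA the one of 2 windows with more matches to ACGTG is printed, chosen after the matches were counted. Windows of the other 5 genes follow, 5′ to 3′ on the strand of the gene, with every ACGTG or GCGTG of either strand capitalised.
SLC2A1: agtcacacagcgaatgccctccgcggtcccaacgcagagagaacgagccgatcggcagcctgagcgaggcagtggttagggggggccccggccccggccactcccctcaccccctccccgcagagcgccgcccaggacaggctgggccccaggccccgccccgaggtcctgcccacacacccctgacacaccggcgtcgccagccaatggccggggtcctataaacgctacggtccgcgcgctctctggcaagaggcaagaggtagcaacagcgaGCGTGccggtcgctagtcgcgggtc
HK2: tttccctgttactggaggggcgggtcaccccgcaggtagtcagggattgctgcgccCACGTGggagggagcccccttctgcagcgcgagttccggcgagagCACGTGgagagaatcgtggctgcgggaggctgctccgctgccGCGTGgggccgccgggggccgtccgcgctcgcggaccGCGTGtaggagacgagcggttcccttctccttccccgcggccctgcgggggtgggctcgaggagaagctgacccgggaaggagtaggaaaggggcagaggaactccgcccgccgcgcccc
PFKFB3: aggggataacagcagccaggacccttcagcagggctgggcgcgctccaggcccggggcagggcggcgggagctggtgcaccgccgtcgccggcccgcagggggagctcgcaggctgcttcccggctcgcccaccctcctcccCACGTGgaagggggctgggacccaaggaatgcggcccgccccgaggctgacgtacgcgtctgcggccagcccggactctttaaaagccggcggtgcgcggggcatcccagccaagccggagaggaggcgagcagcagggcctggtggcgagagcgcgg
PGK1: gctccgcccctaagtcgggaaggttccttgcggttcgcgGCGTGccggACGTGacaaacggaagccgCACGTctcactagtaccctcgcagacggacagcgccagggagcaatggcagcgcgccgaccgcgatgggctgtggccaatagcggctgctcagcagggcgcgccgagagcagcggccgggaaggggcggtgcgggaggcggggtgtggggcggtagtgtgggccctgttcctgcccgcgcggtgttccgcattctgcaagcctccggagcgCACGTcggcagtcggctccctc
LDHA: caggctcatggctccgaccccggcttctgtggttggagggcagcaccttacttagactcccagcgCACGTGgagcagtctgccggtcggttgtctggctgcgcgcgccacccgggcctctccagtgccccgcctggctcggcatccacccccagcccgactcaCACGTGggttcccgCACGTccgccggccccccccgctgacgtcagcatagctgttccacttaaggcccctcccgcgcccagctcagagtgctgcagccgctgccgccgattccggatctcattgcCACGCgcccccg
The SLC2A1 window lies at chr1:42958819-42959118 on the minus strand, the HK2 window at chr2:74834920-74835219, the PFKFB3 window at chr10:6202682-6202981, the PGK1 window at chrX:78103998-78104297 and the LDHA window at chr11:18394313-18394612, the last 4 on the plus strand. The printed LDHA window held 5 matches to ACGTG, the PGK1 window 3, the printed HK2 window 4 and the printed PFKFB3 window 2, counted on both strands, while the SLC2A1 window held none and 1 to GCGTG. The other window held 0 matches to ACGTG for LDHA, 2 for HK2 and 0 for PFKFB3. Each CACGTG counts as 2 of these matches. The printed LDHA and HK2 windows held 2 CACGTG each and the printed PFKFB3 window 1. The PGK1 window and the other HK2 window held 0, so the HK2 windows had equally many separate places with ACGTG.

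Under dopamine the glucose carriers had the largest differences from control. SLC2A3 rose by 1.32-fold, while SLC2A1, HK2 and ALDOA were higher in all 3 dopamine libraries than in any control without passing the threshold. Of the 10 genes 8 had a fold change above 0, as did 49.3% of all genes tested. A gene counts as called when its p-value from edgeR's quasi-likelihood F-test, adjusted over all 18913 genes by the Benjamini-Hochberg method, was under 0.05. In this comparison 1 of the 10 was called, where 0.703% of all genes were called and 0.555% were called higher. The median log2 fold change of the 10 was 0.15, against -0.003 over all genes tested.

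SLC2A3 stood at 104, 105 and 95.7 CPM in the control libraries and at 131, 144 and 129 CPM in the dopamine libraries. The groups did not overlap. The fitted log2 fold change was 0.41 (SE 0.07, 95% interval 0.25 to 0.56, edgeR adjusted p = 0.0147). SLC2A1 stood at 142, 152 and 136 CPM in controls and at 186, 198 and 176 CPM with dopamine, again with no overlap. Its log2 fold change was 0.38 (SE 0.09), about as large as that of SLC2A3, and its edgeR adjusted p was 0.0622.

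The dopamine libraries were also above every control library for HK2, ALDOA, PGK1 and ENO1, so that 6 of the 10 genes were higher without overlap, where 12.2% of all genes were. HK2 had 318, 348 and 309 CPM in controls and 379, 371 and 367 CPM with dopamine, a log2 fold change of 0.20 (SE 0.06, edgeR adjusted p = 0.134). ALDOA had 442, 442 and 429 CPM in controls and 507, 503 and 508 CPM with dopamine, a log2 fold change of 0.21 (SE 0.06, edgeR adjusted p = 0.109). The other 2 showed smaller differences, with log2 fold changes of 0.12 for ENO1 and 0.10 for PGK1. LDHA, at 174, 142 and 151 CPM in controls and 178, 190 and 158 CPM with dopamine, overlapped. Of the PFKFB pair, PFKFB3 had a log2 fold change of -0.11 and PFKFB4 one of 0.05, and PDK1 had -0.03, none of them called. The 4 genes with an unadjusted p under 0.05, all higher, were SLC2A1, SLC2A3, HK2 and ALDOA, where 7.12% of all genes were higher at that level.

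The SLC2A3 call was lost without library 2 of dopamine (edgeR adjusted p = 0.136), without library 1 of control (0.0753) and without library 3 of control (0.0923). DESeq2 called 4 of the 10 higher, SLC2A1, SLC2A3, HK2 and ALDOA, and edgeR fitted to only the groups compared called 3, SLC2A1, SLC2A3 and ALDOA. DESeq2 also called more genes in all, and edgeR fitted to only the groups compared called 540, against 133 in the reported fit.

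Of 109 tested genes on 10 lists of neighbouring pathways, 8 were called higher with dopamine and none lower. Over all genes tested, 0.555% were called higher and 0.148% lower. Of the 8, 6 were among 19 tested HIF targets outside glucose metabolism, whose median log2 fold change was 0.30. The lists were chosen with earlier results of these data known, so this count describes the list and was not tested. ADM, the vasodilator peptide adrenomedullin, had 4.02, 5.19 and 4.73 CPM in controls and 11.6, 14.7 and 9.85 CPM with dopamine, a log2 fold change of 1.37 (SE 0.27, edgeR adjusted p = 0.0270). BHLHE40, a transcriptional repressor of the circadian system, rose by 0.62 on the log2 scale, DDIT4, a stress-induced brake on mTOR signalling, by 0.44, P4HA1, a collagen prolyl hydroxylase subunit, by 0.39, ERO1A, an oxidase of the endoplasmic reticulum, by 0.37 and TFRC, the transferrin receptor, by 0.30. The remaining 2 were PPP1R3C, which targets a phosphatase to glycogen and promotes glycogen synthesis, at 0.91 (SE 0.14), and PDHX, a component of the pyruvate dehydrogenase complex, at 0.33 (SE 0.06). Among the other genes of upper and lower glycolysis, 0 of 22 were called, and GAPDH had a log2 fold change of 0.06, PKM of 0.06 and TPI1 of 0.17.

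Leaving out library 2 of dopamine or library 3 of control left 0 of these 8 calls, leaving out library 1 of control left 1 and leaving out library 2 of control left 4. The authors' deposited table for dopamine lists ADM at a log2 fold change of 1.38 (FDR 5.96e-11) and none of the 10 genes. Its header does not name the group compared with. None of the 10 is in any of the authors' 5 deposited tables, which hold only genes with a log2 fold change of at least 1 in size, so a change of the size seen in SLC2A3 could not have entered them.

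Several marker lists differed between the dopamine and control libraries. Choroid plexus markers summed to 166 to 176 CPM with dopamine and 68.5 to 134 CPM in controls, ventral forebrain markers to 383 to 487 CPM against 509 to 588 CPM, neuronal markers to 8434 to 9007 CPM against 9108 to 9705 CPM, and markers of dividing cells to 241 to 280 CPM against 208 to 239 CPM. Pigment and eye markers summed to 7.61 to 8.57 CPM against 4.55 to 6.82 CPM, with 4 of 4 tested genes above 0. Of 6 markers of the oligodendrocyte lineage 5 had a fold change below 0 (median log2 fold change -0.60), and OLIG1, named after its values were seen as the 1 marker called in this comparison, fell by 1.34 on the log2 scale (SE 0.24, edgeR adjusted p = 0.0141), from 5.45 ± 0.858 CPM to 2.15 ± 0.692 CPM (SD, n = 3 each). The summed level of that list overlapped, at 228 to 263 CPM with dopamine and 209 to 231 CPM in controls. Endothelial markers summed to 12.9 to 14.0 CPM with dopamine and 8.99 to 12.6 CPM in controls. Microglial markers, near 0, summed to 0.524 to 0.648 CPM with dopamine and 0.253 to 0.414 CPM in controls. The part of these differences in the results above was not tested.

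**Figure D2:**
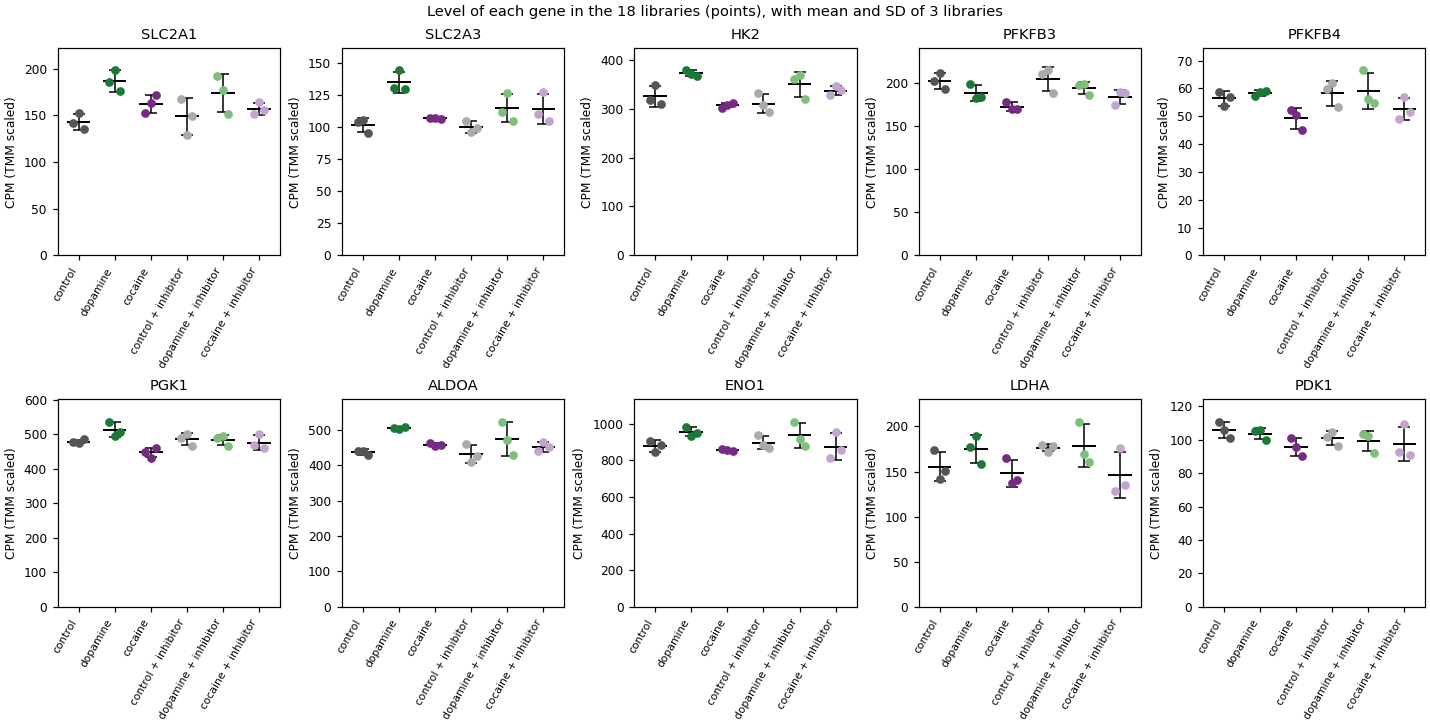
CPM of each of the 10 genes in the 18 libraries, with points for libraries, bars for means and error lines for the SD of 3 libraries. SLC2A3 sits at 129 to 144 CPM in the dopamine group, above the 95.7 to 105 CPM of the controls, and PFKFB3 sits at 169 to 178 CPM with cocaine, below the 193 to 212 CPM of the controls.

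Under cocaine the 10 genes differed in direction. PFKFB3 fell to 0.852 of its control level, and the transporters and ALDOA were slightly above control without being called. In all, 3 genes had a fold change above 0, as did 51.1% of all genes tested, and 7 below, and the median log2 fold change was -0.08, against 0.01 over all genes. Of the 10, 1 was called, where 4.33% of all genes were called and 2.59% were called lower.

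PFKFB3 stood at 202, 212 and 193 CPM in controls and at 178, 169 and 170 CPM with cocaine. The groups did not overlap, and the log2 fold change was -0.23 (SE 0.06, 95% interval -0.35 to -0.11, edgeR adjusted p = 0.0358). PFKFB4, at 58.7, 53.6 and 57.1 CPM in controls and 52.3, 50.3 and 45.0 CPM with cocaine, also did not overlap, with a log2 fold change of -0.20 (SE 0.08, edgeR adjusted p = 0.148). PGK1 (-0.10) and PDK1 (-0.14) were lower in every cocaine library than in any control, which makes 4 genes lower without overlap, where 16.3% of all genes were. SLC2A1, SLC2A3 and ALDOA were higher without overlap, 3 genes, where 16% of all genes were. SLC2A1 had 153, 163 and 171 CPM with cocaine, a log2 fold change of 0.18 (SE 0.09, edgeR adjusted p = 0.246). SLC2A3 had 107 CPM in each of the 3 cocaine libraries, just above the highest control at 105 CPM, a log2 fold change of 0.07. HK2, ENO1 and LDHA overlapped with controls at log2 fold changes of -0.08, -0.03 and -0.07, and that of LDHA was -0.02 without library 2 and -0.03 without library 3 of cocaine.

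The PFKFB3 call was lost without library 2 or 3 of cocaine (edgeR adjusted p = 0.103 and 0.196), without library 1, 2 or 3 of control (0.134, 0.130 and 0.0525), and when a trend of fold change with gene length was removed (-0.21, adjusted p = 0.0569), an alternative chosen after seeing the data.

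Of the 109 other pathway genes, 6 were called higher and 4 lower with cocaine. Over all genes tested, 1.73% were called higher and 2.59% lower. HK1 fell by 0.26 on the log2 scale, from 432, 404 and 402 CPM to 365, 344 and 327 CPM (edgeR adjusted p = 0.0361), and HKDC1, a hexokinase-like gene at 2.24 CPM or less in these groups, fell by 0.84. PGM2L1, which makes glucose 1,6-bisphosphate in brain, fell by 0.40 and ARNT2, the neuronal partner of HIF subunits, by 0.33. On the lactate side, LDHB rose by 0.23 (from 351, 352 and 366 CPM to 394, 414 and 442 CPM, edgeR adjusted p = 0.0267) and SLC16A1, a carrier of lactate and pyruvate, by 0.27. TXNIP, which lowers glucose uptake by removing carriers from the membrane, rose by 0.20, DDIT4 by 0.31, PCK2, a mitochondrial enzyme that turns oxaloacetate into phosphoenolpyruvate, by 0.75 and ENO3, the muscle enolase, by 0.80 at 2.63 CPM or less. Leaving out library 2 or 3 of cocaine, or library 1 or 2 of control, left 0 of these 10 calls. Leaving out library 3 of control left 3, removing the length trend left 5 and testing without the filter on low counts left 6.

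The authors' deposited table for cocaine lists EPAS1, the HIF2 alpha subunit, at a log2 fold change of 1.03 (FDR 0.000764). EPAS1 is outside the rule by which other genes are named and is given because that table holds it. The header of that table does not name the group compared with. In the fit used here, against control, EPAS1 had a log2 fold change of 1.03 (SE 0.31) and was not called (edgeR adjusted p = 0.0629). It stood at 2.22 ± 0.11 CPM in controls and 4.54 ± 0.65 CPM with cocaine (SD, n = 3 each).

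With cocaine, neuronal markers summed to 7431 to 8231 CPM against 9108 to 9705 CPM in controls, ventral forebrain markers to 282 to 410 CPM against 509 to 588 CPM, markers of dividing cells to 287 to 560 CPM against 208 to 239 CPM, markers of radial glia and astrocytes to 2630 to 3032 CPM against 2362 to 2493 CPM, and choroid plexus markers to 144 to 434 CPM against 68.5 to 134 CPM. Pigment and eye markers summed to 10.1 to 13.9 CPM against 4.55 to 6.82 CPM (4 of 4 tested genes above 0, median log2 fold change 1.199). Markers of pericytes and mesenchyme overlapped, at 91.9 to 137 CPM against 88.0 to 92.3 CPM (7 of 8 above 0, median 0.58), as did those of hindbrain and spinal cord, at 58.0 to 196 CPM against 43.1 to 77.6 CPM (7 of 8 above 0, median 0.67). Markers of the oligodendrocyte lineage summed to 241 to 265 CPM with cocaine and 209 to 231 CPM in controls. Microglial markers, near 0, summed to 0.479 to 0.697 CPM with cocaine and 0.253 to 0.414 CPM in controls. The part of these differences in the cocaine results was not tested.

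**Figure D3:**
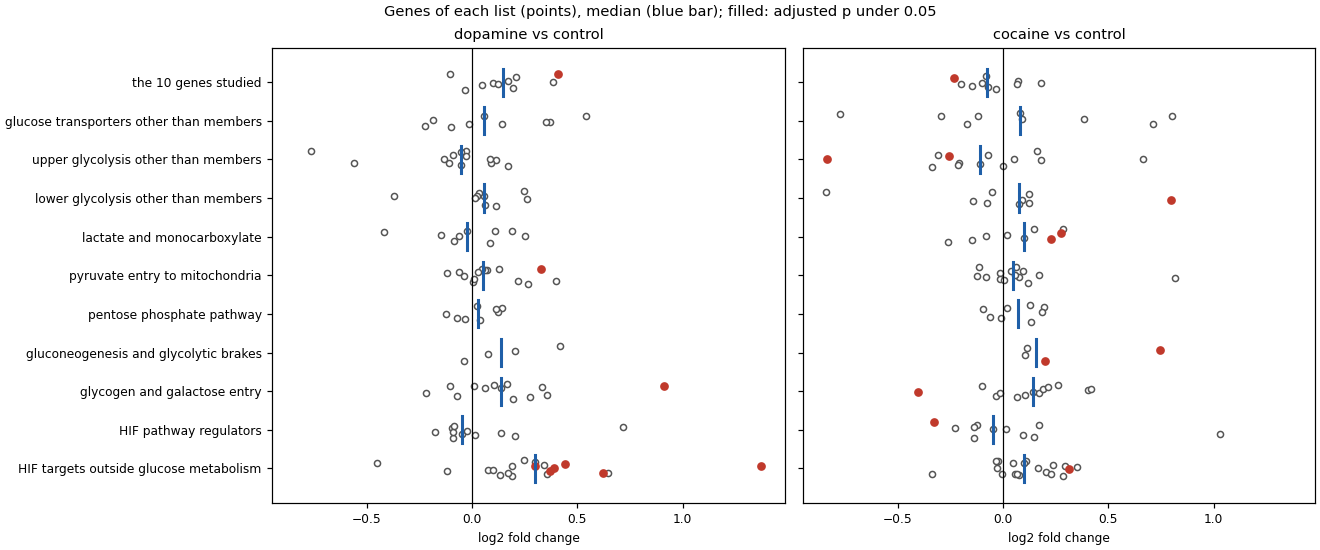
Log2 fold change of dopamine and of cocaine against control for each tested gene, by list, with blue bars for list medians and filled points for genes with an edgeR adjusted p under 0.05. With dopamine the HIF targets outside glucose metabolism have a median of 0.30 and 6 filled points. With cocaine the same list has a median of 0.10 and 1 filled point, DDIT4. The lists were chosen with earlier results of these data known.

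The direct comparison of cocaine with dopamine put all 10 genes lower with cocaine, at log2 fold changes from -0.34 for SLC2A3 to -0.11 for PDK1 and a median of -0.20, against -0.001 over all genes. In this comparison 50.2% of all genes had a fold change below 0. Of the 10, 8 were lower without overlap, all but LDHA and PDK1, where 10.3% of all genes were. HK2 was 302, 308 and 312 CPM with cocaine against 379, 371 and 367 CPM with dopamine, a log2 difference of -0.28 (SE 0.06). SLC2A3 differed by -0.34 (SE 0.07), PGK1 by -0.20 (SE 0.05) and PFKFB4 by -0.24 (SE 0.08).

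No gene passed the threshold in this comparison. edgeR called 0 of the 10 and 0% of all genes, with adjusted p from 0.237 to 0.535 for the 10. At an unadjusted p under 0.05, 8 of the 10 were lower, all but LDHA and PDK1, where 5.82% of all genes were. DESeq2 called 72 genes, 3 of them among the 10: HK2 (DESeq2 adjusted p = 0.00489), PGK1 (0.0122) and SLC2A3 (0.0137), all lower with cocaine. limma voom called 0. Both drug groups are compared with the same 3 control libraries above, so the values against control share those libraries, whereas this comparison does not use them. With any 1 of the 6 libraries left out, all 10 log2 fold changes stayed below 0 and edgeR called none of the 10.

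**Figure D4:**
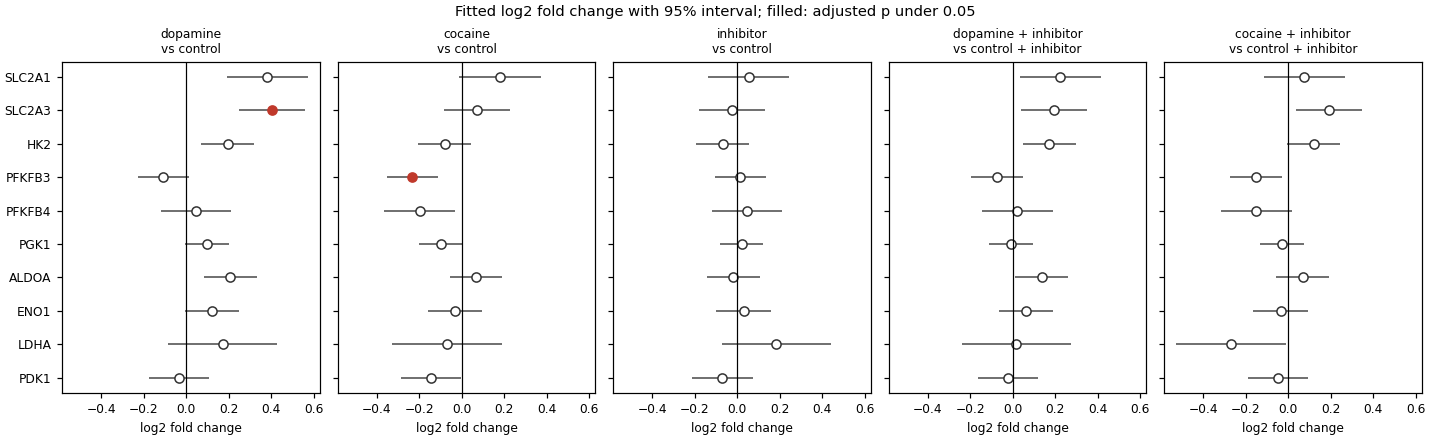
Log2 fold change of the 10 genes (circles) with 95% intervals (lines) in the 5 comparisons with a matched control; filled circles mark an edgeR adjusted p under 0.05. Only SLC2A3 with dopamine (0.41) and PFKFB3 with cocaine (-0.23) are filled.

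The inhibitor alone moved none of the 10 past the threshold. edgeR called 0 of the 10 and 0% of all genes, and log2 fold changes ran from -0.07 for PDK1 to 0.18 for LDHA. None of the 10 had an unadjusted p under 0.05, as 5.72% of all genes had, and DESeq2 called 4 genes and limma voom 0, none of them among the 10. LDHA, at 180, 172 and 178 CPM with the inhibitor, overlapped with one control library at 174 CPM (SE of its log2 fold change 0.12).

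With the inhibitor present, dopamine against its own control called 0 of the 10, where 0.00529% of all genes were called, and DESeq2 and limma voom called 0 of the 10 as well. The carriers were again among the larger differences. SLC2A3 had 105, 96.0 and 99.2 CPM in control + inhibitor and 112, 127 and 105.2 CPM in dopamine + inhibitor, a log2 fold change of 0.19 (SE 0.07, edgeR adjusted p = 0.824), and these groups narrowly did not overlap. It was the only one of the 10 higher without overlap, where 5.81% of all genes were. SLC2A1 had a log2 fold change of 0.22 (SE 0.09), HK2 of 0.17 (SE 0.06) and ALDOA of 0.14 (SE 0.06), and the same 4 genes, SLC2A3 included, were higher at an unadjusted p under 0.05, where 3.01% of all genes were. Library 3 of dopamine + inhibitor, the one with pigment markers, was the lowest of its group for all 10 genes. Without it the log2 fold change was 0.31 for SLC2A1, 0.25 for SLC2A3, 0.23 for HK2 and 0.20 for ALDOA, none of them called.

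Whether the inhibitor changed the response to dopamine was tested by the interaction of drug and inhibitor. For SLC2A3 the interaction was -0.21 on the log2 scale (SE 0.10, 95% interval -0.43 to 0.01, edgeR adjusted p = 0.615). For SLC2A1 it was -0.16 (SE 0.13), for HK2 -0.02 (SE 0.08) and for ALDOA -0.07 (SE 0.08). Without library 3 of dopamine + inhibitor the interaction was -0.15 for SLC2A3, -0.07 for SLC2A1, 0.04 for HK2, with the sign changed, and -0.005 for ALDOA. None of the 10 was called by edgeR, DESeq2 or limma voom or had an unadjusted p under 0.05, where 0.00529% of all genes were called and 8.35% had such a p. Of the pathway genes 1 was called, DDIT4, whose log2 fold change with dopamine was 0.44 without the inhibitor and -0.38 with it. DDIT4 stood at 147, 168 and 150 CPM in controls, 214, 204 and 213 CPM with dopamine, 197, 181 and 193 CPM in control + inhibitor and 146, 160 and 134 CPM in dopamine + inhibitor. The dopamine libraries were above the controls without the inhibitor and below them with it. The lower level with the inhibitor was not called, nor was the difference between control + inhibitor and control.

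Setting dopamine + inhibitor against dopamine directly, SLC2A3 was lower by a log2 difference of -0.23 (SE 0.07, edgeR adjusted p = 0.431), without overlap, and PGK1 by -0.09, also without overlap, 2 of the 10 where 7.47% of all genes were lower without overlap. edgeR called 0 of the 10, DESeq2 and limma voom also 0, and 1 of the 10, SLC2A3, was lower at an unadjusted p under 0.05, where 4.24% of all genes were. The 1 gene that edgeR called, 0.00529% of all, was DDIT4 (-0.52, adjusted p = 0.0208), and that call was lost in 5 of the 6 fits that left out 1 library, all but the one without library 2 of dopamine + inhibitor (adjusted p up to 0.304).

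With the inhibitor present, cocaine against its own control called 0 of the 10, where 0.0211% of all genes were called, and DESeq2 and limma voom called 0 of the 10 too. PFKFB3 had a log2 fold change of -0.15 (SE 0.06, edgeR adjusted p = 0.218) and LDHA of -0.27 (SE 0.12, edgeR adjusted p = 0.282), both lower at an unadjusted p under 0.05, where 8.27% of all genes were. SLC2A3 was at 0.19 (SE 0.07, edgeR adjusted p = 0.230). It was the 1 gene of the 10 higher at an unadjusted p under 0.05, where 8.38% of all genes were. LDHA had 180, 172 and 178 CPM in control + inhibitor and 128, 176 and 135 CPM in cocaine + inhibitor, so that library 2 of the drug group stood with the controls and the other 2 well below them. Without that library LDHA was called (log2 fold change -0.42, edgeR adjusted p = 0.0335) and SLC2A3 was at 0.10 (0.420). Without library 1 of cocaine + inhibitor, the one with the most dividing cell markers, LDHA was at -0.18 (edgeR adjusted p = 0.731). TXNIP was higher by 0.54 (SE 0.06, edgeR adjusted p = 0.000249), from 452, 479 and 427 CPM to 678, 665 and 626 CPM, and lost its call when edgeR was fitted to only the groups compared (adjusted p = 0.318).

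The interaction of cocaine and inhibitor called 0 of the 10 and 0% of all genes with edgeR. HK2, at 0.20 (SE 0.08, edgeR adjusted p = 0.918), was the only one of the 10 with an unadjusted p under 0.05, as 5.26% of all genes had, and DESeq2 called 1 gene, not one of the 10, while limma voom called 0. Cocaine + inhibitor against cocaine called 0 of the 10 and 0% of all genes with edgeR, DESeq2 and limma voom. There HK2 was higher by 0.13 (SE 0.06) at 327, 346 and 337 CPM against 302, 308 and 312 CPM, the 1 gene of the 10 without overlap, where 4.19% of all genes were higher without overlap. It was also the 1 gene of the 10 with an unadjusted p under 0.05, as 3.21% of all genes had.

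The mix of isozymes was followed as shares of summed TPM within each library. HK2 made up 33.8, 37.4 and 34.7% of HK1 and HK2 in controls and 40.1, 41.4 and 39.6% with dopamine, a difference of 5.02 percentage points without overlap. ENO1 made up 49.4, 47.7 and 49.4% of ENO1 and ENO2 in controls and 50.6, 50.9 and 50.9% with dopamine, also without overlap. With cocaine PDK1 made up 41.8, 41.3 and 38.0% of the PDK family, against 45.5, 43.2 and 43.8% in controls. The 21 comparisons set dopamine, cocaine or the inhibitor against control, and these were the 3 without overlap. Each had an exact two-sided permutation p of 0.1, the smallest that 3 against 3 libraries can give, and 0.6 after adjustment over the 21. Shares of drug against control with the inhibitor present were not tested. HK2 made up 37.1, 33.4 and 35.8% of its pair in control + inhibitor. Without overlap it was higher in dopamine + inhibitor (39.4, 40.4 and 38.2%) and cocaine + inhibitor (40.7, 38.4 and 39.2%). The LDHA share was 27.7, 27.2 and 26.7% in control + inhibitor and 18.9, 25.8 and 20.4% in cocaine + inhibitor, also without overlap. The other shares overlapped. SLC2A3 kept close to 40% of both carriers, at 39.9% ± 0.763 in controls and 40.2% ± 0.591 with dopamine (SD, n = 3 each, exact p = 0.6). LDHA was 25.0% ± 2.11 of LDHA and LDHB in controls and 21.4% ± 2.58 with cocaine (exact p = 0.3).

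**Figure D5:**
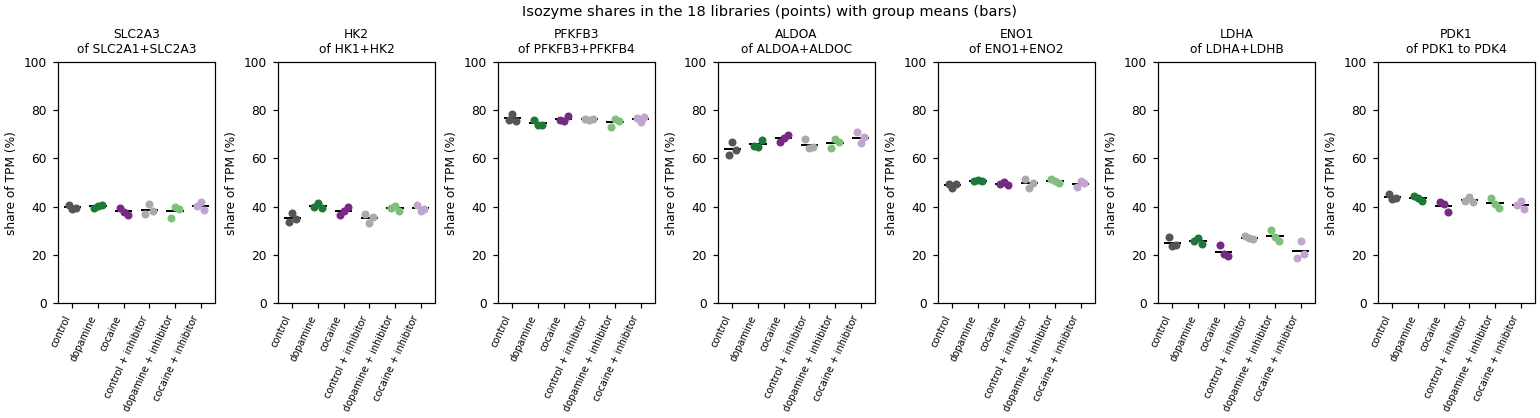
Share of each isozyme in the summed TPM of its family (%), with points for the 18 libraries and bars for group means. HK2 lies at 39.6 to 41.4% with dopamine, above the 33.8 to 37.4% of controls, and the LDHA share ranges from 18.9 to 30.4% over all libraries.

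Over the 18 libraries the log2 CPM of most of the 10 genes varied together. Of the 45 pairs, 42 had a Pearson r above 0, with a median of 0.56 and a range from -0.22 to 0.91, and after group means were subtracted all 45 were above 0 with a median of 0.48. The points share library composition and treatment, and these values describe the libraries with no test. As the mean of the 10 z-scores, the dopamine libraries stood at 1.19, 1.00 and 0.66 and the cocaine libraries at -0.51, -0.89 and -0.90. Groups with inhibitor were wider, from 1.18 down to -0.54 for dopamine + inhibitor and from 0.61 down to -0.93 for cocaine + inhibitor.

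Among 12517 genes outside the lists with a mean of at least 5 CPM, the 5 whose log2 CPM followed that mean most closely over the 18 libraries were FUT11, a fucosyltransferase (r = 0.87, rho = 0.89), CHPF, a chondroitin polymerising factor (0.87 and 0.82), FAM162A, a mitochondrial protein (0.86 and 0.78), TMEM55B, a lysosomal membrane protein (0.83 and 0.80), and TSPYL2, a nuclear protein (0.83 and 0.85). Without the 2 libraries farthest from the median of the mean z-score, r was 0.80 to 0.87 for these 5, and within groups it was 0.71 to 0.92. They were selected for a high r from all genes, so these values describe the selection and were not tested.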

How the data were processed

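The authors deposited raw read counts per gene and TPM values for 18 libraries, and 5 tables of their own comparisons with log2 fold changes and FDR p-values, per the file headers; these also hold signed fold changes and largest group means, which the authors deposited as scores without a named unit. The submitters' processing notes name the builds GRCh38 and hg38, while the sources used here name no aligner, counter, strand setting or annotation. The spans of all 351 genes in the authors' tables with 1 entry in the GRCh38.p14 RefSeq table overlapped that entry, so RefSeq coordinates of that build are printed.

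Counts were tested with edgeR 4.0.16 in R 4.3.3: filterByExpr with a minimum count of 10, TMM factors (0.975 to 1.02), 1 mean per group over all 18 libraries, robust quasi-likelihood F-test, two-sided, Benjamini-Hochberg adjustment over 18913 genes, threshold 0.05, in 10 contrasts. SE is the log2 fold change divided by the square root of F. CPM uses the TMM factors. Alternatives were RLE factors, no filter, DESeq2 1.42.0, limma voom 3.58.1, only the groups compared, and leaving out each library; removing a gene length trend and leaving libraries out of the isozyme shares were added after seeing the data. The scripts were tested on simulated data. Replicates differed by more than counting error in every group (chi-square per gene 3.54 to 21.7). This cannot tell separate cultures from separate preparations of the same culture. Each library was counted once. The members and all lists were chosen with earlier results of these data known. Named are the 10 members, up to 20 other listed genes called in any contrast and fixed isozyme partners. Also named are the 5 genes outside the member and pathway lists most like the members.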

Additional observations from a re-analysis of the deposited data

Results flagged for a closer look

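DDIT4, which encodes an inhibitor of mTOR, responded to dopamine differently with and without acetylcysteine. The interaction was -0.82 on the log2 scale (SE 0.10, edgeR adjusted p = 0.00457), and it was the 1 gene called in that test. The log2 fold change with dopamine was 0.44 without the inhibitor and -0.38 with it, and the latter was not called. Each dopamine library was above all controls without the inhibitor and below all controls with it. Control + inhibitor stood at 181 to 197 CPM and control at 147 to 168 CPM, a difference that was not called. Over 18 alternatives the interaction ranged from -0.88 to -0.76, with adjusted p from 6.87e-10 to 0.0333.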

How the results depend on the processing

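Numbers of genes called depended on the tool and on single libraries. With DESeq2, 489 genes were called for dopamine against control (4 of the 10 genes), 1648 for cocaine, 4 for the inhibitor, 6 for dopamine + inhibitor against control + inhibitor, 313 for cocaine + inhibitor against control + inhibitor, 34 for dopamine + inhibitor against dopamine, 72 for cocaine against dopamine (3 of the 10), and 17 and 1 for the interactions of dopamine and of cocaine with the inhibitor. With only the groups compared, these counts were 540 for dopamine (3 of the 10), 1583 for cocaine, 0 for cocaine + inhibitor and 3 for dopamine + inhibitor against dopamine. Without the filter they were 9 for cocaine + inhibitor against control + inhibitor and 3 for dopamine + inhibitor against dopamine. With the length trend removed they were 350 for cocaine (0 of the 10) and 2 for dopamine + inhibitor against dopamine. The reported counts were 133, 818, 0, 1, 4, 1, 0, 1 and 0 in the order of the DESeq2 list. The cause of these shifts was not tested.

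Leaving out 1 library at a time gave 7 to 100 genes for dopamine, 0 to 1121 for cocaine, 0 for dopamine + inhibitor against control + inhibitor in every case, 2 to 1276 for cocaine + inhibitor against control + inhibitor (1276 without library 2 of cocaine + inhibitor), and 0 to 1 for dopamine + inhibitor against dopamine. Of the 10 genes it called 0 to 1 for dopamine, 0 to 1 for cocaine and 0 to 1 for cocaine + inhibitor against control + inhibitor. SLC2A3 with dopamine kept a log2 fold change of 0.35 to 0.43 over 12 alternatives (adjusted p 0.000137 to 0.136), and PFKFB3 with cocaine one of -0.27 to -0.20 (0.00506 to 0.196). No value of a named gene that was called, in the reported fit or in one of these alternatives, had the opposite sign in the other. No paired analysis was possible because the library names carry no number shared between groups. Depth was at least 23789195 reads per library.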
